A study of Arabidopsis thaliana with 25 samples.

Results

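The 47 nuclear photosynthesis genes described here encode the chlorophyll-binding antenna of photosystem I (LHCA, 4 genes) and photosystem II (LHCB, 14 genes), the small subunit of Rubisco (RBCS, 4 genes), subunits of photosystem I (PSA, 12 genes) and photosystem II (PSB, 10 genes), and the Calvin cycle proteins Rubisco activase (RCA) and chloroplast glyceraldehyde-3-phosphate dehydrogenase (GAPA and GAPB). They were chosen by gene identifier from the 27206 nuclear protein-coding genes that were counted, and all 47 were found. The rule names identifiers and no level, but the genes were picked with earlier results of these data known. In leaves these genes are among the most abundant nuclear messages. They are transcribed in response to light and to the state of the plastid, with the GLK transcription factors and HY5 among their known activators and the circadian clock setting their time of day. Root plastids are usually colourless and carry out other metabolism, but roots of Arabidopsis can green when they are lit or when they are cut from the shoot.

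Root systems of 8-week-old Arabidopsis plants, grown in a greenhouse with 6 h days and 18 h nights, were profiled by RNA-Seq of poly(A) RNA with libraries that do not keep the strand. Of the 25 libraries, 11 came from phf1, 3 from phr1 phl1 and 11 from Col-0, the wild type in whose background both mutants were made. PHF1, missing in phf1, helps phosphate transporters leave the endoplasmic reticulum for the cell surface. The phr1 phl1 double mutant lacks PHR1 and its relative PHL1, transcription factors that direct the phosphate starvation response. Plants grew in field soil that had received 0, 15 or 45 kg of P per ha and year (low, medium and high P), or in low P soil given 12.6 mg of P per pot during growth (low+P, or low+Pi in the labels). For both phf1 and Col-0 there were 3 libraries per soil in low, medium and high P and 2 in low+P, while phr1 phl1 was sampled in low P (2 libraries) and low+P (1 library). The deposited counts name the group of a library and give neither a plot nor a replicate number, so the letters A, B and C given to the libraries within each group carry no order and do not match between groups. The labels give the tissue as root, but their text on RNA extraction speaks of seedlings and of a method other than the column kit that the methods of the study name for this plant tissue, and which applies was not settled.

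Total counts ran between 2368981 and 7408960 per library, so that 1 CPM, a count scaled to the total of its library, stood for 2.37 to 7.41 reads. PHR1, which is mutated in phr1 phl1, had 31.9 and 37.9 CPM in phr1 phl1 at low P, but 73.6 CPM in the 1 library labelled phr1 phl1 and low+P, a level found in the other genotypes (49.0 to 77.9 CPM). PHL1, the other gene mutated in phr1 phl1, was not lower there. It had 95.9 and 79.3 CPM at low P and 64.1 CPM in the low+P library, against 13.9 to 87.1 CPM in the other genotypes. PHF1 did not separate phf1 (9.00 to 29.1 CPM) from Col-0 (14.8 to 46.9 CPM). In whole roots, fewer cells of a type and less RNA per cell cannot be told apart. Nothing in the sources used here says how much light reached the roots. Samples were harvested in random order, and the hour of harvest of each library is not given in the sources used here.

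All 47 genes had reads in these roots, at low levels. Their summed level had a median of 454.8 CPM over the 25 libraries and ran between 167.9 CPM in Col-0 low P C and 3981 CPM in phf1 high P A. Of the 47 genes, 44 averaged at least 1 CPM over the 25 libraries and 17 at least 10 CPM. Per kilobase of exon, the mean level was highest for LHCB1.3, a major protein of the trimeric photosystem II antenna (100.5 CPM per kb), followed by LHCB4.1, a minor antenna protein (48.6), LHCA4 of the photosystem I antenna (45.4) and LHCB1.5 (42.8). PSBO1, which shields the manganese cluster of the oxygen-evolving complex, had 36.3 CPM per kb, RCA 21.3 and RBCS1A 20.9. The lowest were RBCS1B (0.137 CPM per kb) and LHCB4.3 (0.462).

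Summed over the genes, 4 libraries lay above 1000 CPM, and these were all 3 phf1 medium P libraries and 1 of the phf1 high P libraries. The sum in low P was 413.6, 690.0 and 261.8 CPM for phf1, 360.6 and 808.1 CPM for phr1 phl1, and 499.9, 364.1 and 167.9 CPM for Col-0. In low+P it was 719.7 and 559.7 CPM in phf1, 941.9 CPM in the 1 library labelled phr1 phl1 and low+P. Col-0 sums there were 354.7 and 238.2 CPM. In medium P it was 2409, 1617 and 1833 CPM in phf1, against 322.7, 301.4 and 468.2 CPM in Col-0. In high P it was 3981, 454.8 and 260.1 CPM in phf1, against 512.9, 254.6 and 219.4 CPM in Col-0. The 3 phf1 medium P libraries thus lay close together and apart from Col-0, whereas in high P 1 phf1 library stood far from the other 2, which lay within the range of Col-0. Of the 47 genes, 46 had their highest level of all 25 libraries in 1 of these 4 libraries. The exception was GAPB, whose highest level (12.9 CPM) was in Col-0 low P A. The highest level of 23 genes was in phf1 high P A (1.44% of all genes with any count) and of 18 in phf1 medium P A (3.84%). For phf1 medium P B it was 1 gene (2.43%) and for C 4 genes (1.88%). The 4 libraries were set apart by the sum of these same genes, so these counts add no support of their own.

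**Figure D1:**
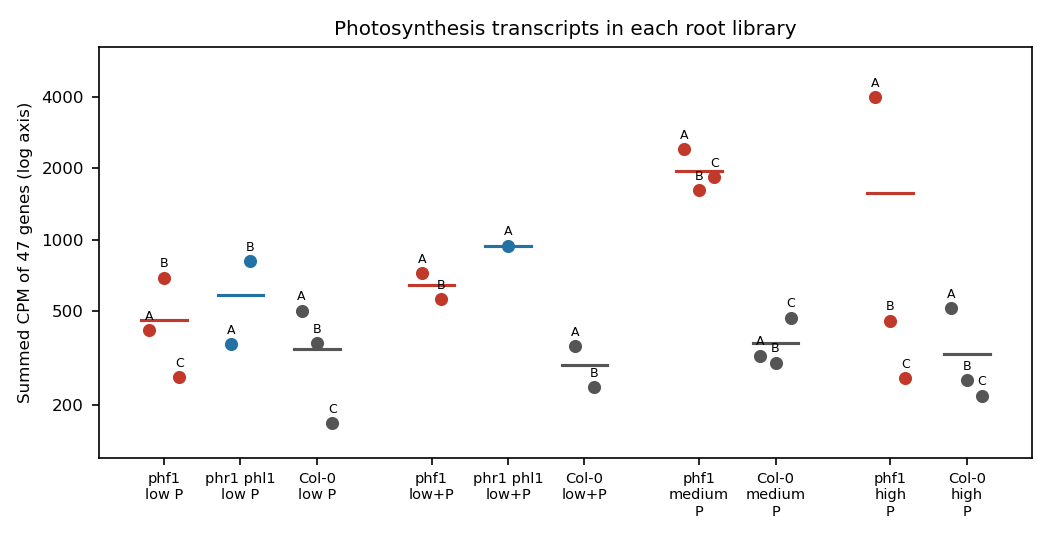
Summed CPM of the 47 photosynthesis genes (log axis) in each library, by P regime and genotype. Each point is 1 library with its letter and each bar is the group mean. The phf1 medium P libraries sit at 1617 to 2409 CPM and phf1 high P A at 3981 CPM, while no Col-0 library exceeds 512.9 CPM.

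To ask whether the genes differed between phf1 and Col-0 in medium P, edgeR's quasi-likelihood test was run over the 22 phf1 and Col-0 libraries. A gene was called at a Benjamini-Hochberg adjusted p below 0.1, the threshold of the study, and all tests were two-sided. The comparison within medium P was added after the values had been seen. Every phf1 library lay above every Col-0 library for 43 of the 47 genes, against 7.31% of all 19034 genes tested, and no gene of the 47 lay below in this way, against 6.79% of all genes. The 4 genes that overlapped between the genotypes were LHCB4.3, RBCS1B, PSBO2 and RCA. Of the 45 genes tested, all had a higher fitted level in phf1, and the median log2 fold change was 3.28, where the median of all genes tested was -0.03. LHCB4.3 and RBCS1B were too low to be tested. A filter on low counts can pass a gene because of the group in which it is high, and 9 of the 45 did not pass it in the Col-0 libraries alone. The median was 3.21 over the 36 that did and 3.31 over the 9.

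Of these genes edgeR called 2, both higher in phf1 and both of the photosystem II antenna, where 0.0368% of all genes were called (7 of 19034). LHCB1.4 (AT2G34430) had 37.9, 5.24 and 34.9 CPM in phf1 medium P, against 0.531, 1.22 and 2.16 CPM in Col-0 medium P. The groups did not overlap, but phf1 B was far nearer to Col-0 than phf1 A and C. Its log2 fold change was 4.24 ± 0.718 (SE, edgeR adjusted p = 0.0549). LHCB2.3 (AT3G27690), the least abundant of the LHCB2 genes per kilobase, had 19.9, 5.38 and 4.49 CPM in phf1 and 0.265, 0.204 and 0.36 CPM in Col-0. Here phf1 A stood above the other 2 phf1 libraries, and the Col-0 values came from 1, 1 and 2 reads. LHCB2.3 is among the 9 genes that did not pass the filter on low counts in the Col-0 libraries alone, so it was tested through the phf1 libraries in which it was high, and the size of its fold change depends on the prior count. Its log2 fold change was 4.98 ± 0.853 (SE, edgeR adjusted p = 0.0549). Either call was lost without any 1 of Col-0 medium P A, Col-0 medium P B, phf1 medium P A and phf1 medium P C, so that the edgeR adjusted p ran between 0.0107 and 0.455 for LHCB1.4 and between 0.0286 and 0.455 for LHCB2.3 over the 22 fits that each left 1 library out. Without Col-0 medium P C, in which the summed level was the highest of the 3, 24 of the genes were called, and there were 5 calls without phf1 medium P B and 6 without phf1 high P A. The share of all genes called in these refits was not worked out, so a rise in calls cannot be tied to the 47 genes. DESeq2 called 32 of the 47 genes at the same threshold, against 1.67% of all genes. At an unadjusted p below 0.05, edgeR had 41 of the 45, against 9.61% of all genes. Both of these counts include genes, such as LHCB2.3, among the 9 that did not pass the filter on low counts in the Col-0 libraries alone.

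The family medians all lay above that of all genes. The median log2 fold change of phf1 over Col-0 in medium P was 4.68 for the 3 RBCS genes tested, 3.71 for 13 LHCB, 3.63 for RCA, GAPA and GAPB together, 3.11 for 12 PSA, 2.71 for 10 PSB and 2.50 for 4 LHCA genes. The most abundant member of each family was examined in every library. LHCB1.3 (AT1G29930) had 340.2, 305.3 and 236.1 CPM in phf1 medium P and 8.76, 11.2 and 55.9 CPM in Col-0 medium P. Col-0 C was well above the other 2 Col-0 libraries and still below each phf1 library. The log2 fold change was 3.54 ± 1.21 (SE, edgeR adjusted p = 0.350), so this gene was not called in spite of the size of the difference. RBCS1A (AT1G67090), the main Rubisco small subunit gene of leaves, had 90.4, 63.4 and 143.2 CPM in phf1 and 2.65, 2.25 and 13.5 CPM in Col-0. Its log2 fold change was 3.99 ± 1.16 (SE, edgeR adjusted p = 0.271).

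Apart from PSBO2, the members of the photosystems and of the photosystem I antenna did not overlap between the genotypes either. PSAF (AT1G31330), the subunit that docks plastocyanin to photosystem I, had 54.6, 22.1 and 39.9 CPM in phf1 and 4.25, 2.65 and 6.67 CPM in Col-0 (log2 fold change 3.07 ± 0.774, SE, edgeR adjusted p = 0.265). PSAN (AT5G64040), a lumenal subunit of photosystem I, had 22.7, 25.9 and 17.3 CPM in phf1 and 3.98, 2.45 and 6.31 CPM in Col-0. LHCA4 (AT3G47470) had 137.9, 139.3 and 92.8 CPM in phf1 and 55.5, 42.9 and 51.2 CPM in Col-0. PSBO1 (AT5G66570) had 90.4, 108.4 and 89.9 CPM in phf1 and 52.3, 35.9 and 44.2 CPM in Col-0. For LHCA4 and PSBO1 the 2 genotypes lay closer together, with log2 fold changes of 1.28 ± 0.723 and 1.09 ± 0.591 (SE), and neither was called (edgeR adjusted p = 0.601 and 0.584). RCA (AT2G39730) had 119.1, 41.1 and 102.5 CPM in phf1, against 35.0, 42.6 and 26.7 CPM in Col-0. Its phf1 B library lay within the Col-0 range (log2 fold change 1.3 ± 0.445, SE, edgeR adjusted p = 0.350).

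**Figure D2:**
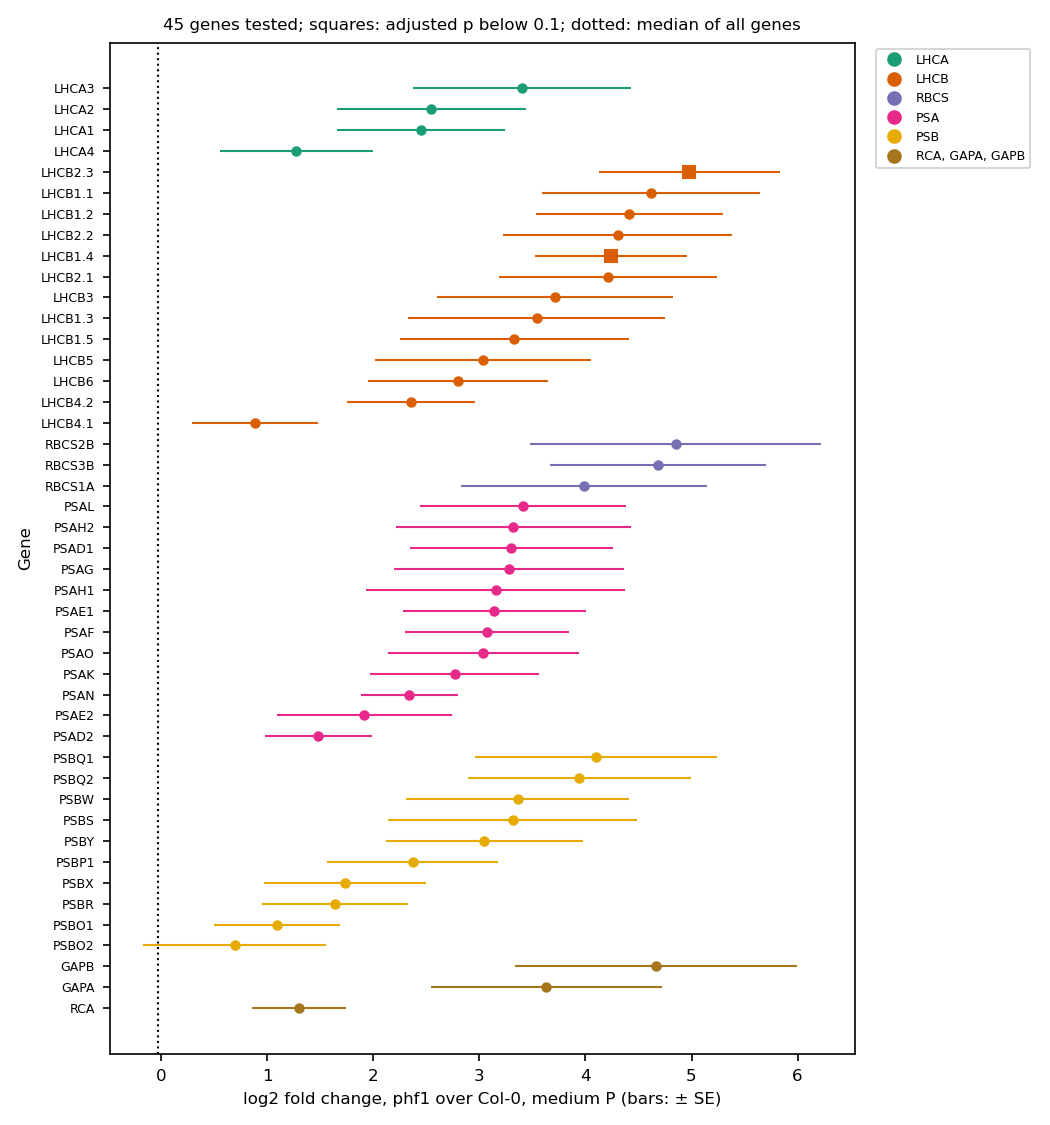
Log2 fold change of phf1 over Col-0 in medium P for the 45 genes tested, by family, with ± SE from edgeR. Squares mark the 2 genes called (LHCB1.4 and LHCB2.3) and the dotted line is the median of all genes tested. All 45 points lie to the right of that line, between 0.70 (PSBO2) and 4.98 (LHCB2.3).

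The 4 libraries with high sums did not hold the same mixture of genes. LHCB1.3 reached 1416 CPM in phf1 high P A, 54.3 times its median of 26.1 CPM over the 25 libraries, but LHCB1.1 (AT1G29920), which encodes a nearly identical protein, had only 6.75 CPM there. In phf1 medium P, LHCB1.1 had 62.0, 3.58 and 50.2 CPM in A, B and C, while LHCB1.3 was at a similar level in all 3. LHCB1.2 (AT1G29910) went with LHCB1.1, at 65.2, 7.72 and 53.0 CPM in phf1 medium P A, B and C and 10.3 CPM in phf1 high P A. LHCB1.5 (AT2G34420) went with LHCB1.3, at 154.5, 116.1 and 113.7 CPM in phf1 medium P A, B and C and 353.3 CPM in phf1 high P A. Of these 4 libraries, LHCB1.1, LHCB1.2 and LHCB1.4 were thus high in phf1 medium P A and C, and LHCB1.3 and LHCB1.5 in all 4.

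Some RBCS and GAP genes parted in the same libraries. On log2(CPM + 1), phf1 medium P A was more than 4-fold above phf1 medium P B for 7 of the 47 genes, LHCB1.1, LHCB1.2, LHCB1.4, LHCB2.2, RBCS2B, RBCS3B and GAPB. All of these except LHCB2.2 were also more than 4-fold higher in phf1 medium P C than in B. On that scale none of the 47 differed by more than 4-fold between phf1 medium P A and C. Without the added 1 CPM, LHCB2.3 did, at 19.9 CPM in A and 4.49 CPM in C. RBCS3B (AT5G38410) had 19.9, 2.48 and 20.5 CPM in phf1 medium P A, B and C and 1.69 CPM in phf1 high P A, where RBCS1A had 170.2 CPM. PSBS (AT1G44575), needed for the heat dissipation of excess light, had 5.67, 1.38 and 6.56 CPM in phf1 medium P and 1.31 CPM in phf1 high P A. The libraries were set side by side after their values had been seen, and no test was made between them.

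**Figure D3:**
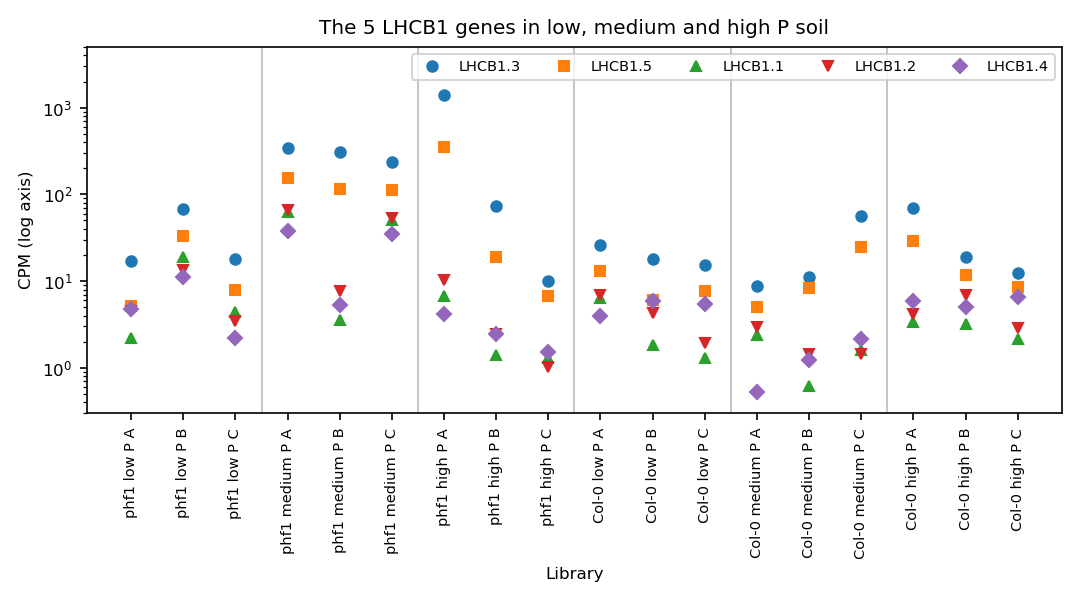
CPM (log axis) of the 5 LHCB1 genes in the low, medium and high P libraries of phf1 and Col-0, 1 column per library. LHCB1.1, LHCB1.2 and LHCB1.4 reach 34.9 to 65.2 CPM in phf1 medium P A and C and lie at 3.58 to 10.3 CPM in phf1 medium P B and phf1 high P A, where LHCB1.3 has 305.3 and 1416 CPM.

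Among the 47 genes, 11 share 50-base stretches of exon with another place in the genome, the length of the reads. They are LHCA2, the LHCB1 genes, LHCB2.1 and LHCB2.2, and the B-type RBCS genes, with 10.6% to 29.5% of their stretches found elsewhere. How reads that map to several places were counted is not given in the sources used here, so values of these genes are uncertain. Over the 36 other genes the summed level in phf1 medium P was 4.20 times that in Col-0 medium P, against 5.36 times over all 47. LHCB2.3 and RBCS1A hold no such stretch. Another annotated gene on the opposite strand overlaps 16 of the 47, LHCB1.3, LHCB1.5, LHCB2.3, LHCA4 and RCA among them, and reads of such partners cannot be told apart in non-stranded libraries.

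The 250 bases upstream of the annotated start are shown for 4 antenna genes, LHCB1.3 and LHCB1.1 because their levels parted between libraries, and LHCB1.4 and LHCB2.3 because they were called. They are RefSeq sequences of TAIR10.1, printed 5′ to 3′ on the strand of the gene, whereas the authors counted on TAIR10. LHCB1.3 lies on chromosome 1 (+ strand), and its window is chr1:10477635-10477884. LHCB1.1 lies beside it on the - strand (chr1:10475970-10476219). LHCB1.4 (chr2:14524357-14524606) and LHCB2.3 (chr3:10255656-10255905) are on the + strand. Capitals mark matches to any of 6 motifs, searched on both strands.
LHCB1.3: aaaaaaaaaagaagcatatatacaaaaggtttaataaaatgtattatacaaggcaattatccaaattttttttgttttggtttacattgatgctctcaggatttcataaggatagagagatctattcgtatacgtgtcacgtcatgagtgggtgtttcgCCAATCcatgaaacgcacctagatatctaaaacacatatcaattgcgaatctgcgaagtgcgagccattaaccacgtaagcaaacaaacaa
LHCB1.1: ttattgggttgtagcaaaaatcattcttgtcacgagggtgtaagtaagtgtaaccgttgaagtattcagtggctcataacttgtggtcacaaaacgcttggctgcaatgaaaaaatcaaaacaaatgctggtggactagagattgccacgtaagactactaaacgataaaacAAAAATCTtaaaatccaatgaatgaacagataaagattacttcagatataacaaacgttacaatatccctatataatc
LHCB1.4: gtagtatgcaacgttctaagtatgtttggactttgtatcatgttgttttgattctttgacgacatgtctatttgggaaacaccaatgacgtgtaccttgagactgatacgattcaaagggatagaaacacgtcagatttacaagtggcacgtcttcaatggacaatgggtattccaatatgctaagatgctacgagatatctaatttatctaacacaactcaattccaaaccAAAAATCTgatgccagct
LHCB2.3: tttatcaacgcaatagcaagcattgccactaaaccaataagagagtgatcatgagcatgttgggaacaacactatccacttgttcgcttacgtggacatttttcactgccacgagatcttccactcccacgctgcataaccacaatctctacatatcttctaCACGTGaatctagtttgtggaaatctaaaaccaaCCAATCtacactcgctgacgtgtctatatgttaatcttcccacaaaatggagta

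The motifs were the G-box CACGTG, the I-box GATAAG, the CCA1-binding site AAAAATCT, the evening element AAAATATCT, the motif CCAATC linked to GLK factors, and the P1BS element GNATATNC bound by PHR1. The LHCB1.1 and LHCB1.4 windows held AAAAATCT (the capitals above), the LHCB1.3 window CCAATC, and the LHCB2.3 window both CACGTG and CCAATC. Over the 47 genes, CCAATC was in 12 windows (25.5%, against 10.1% of 26713 windows of the genes counted), GATAAG in 11 (23.4% against 12.2%) and CACGTG in 9 (19.1% against 6.58%). AAAAATCT was in 5 (10.6% against 6.74%), GNATATNC in 1 (2.13% against 5.45%) and AAAATATCT in 0, against 2.4% of all windows. A match of letters is a description of the window and not of binding.

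To see whether the difference between the genotypes was found in other soils, phf1 and Col-0 were also tested against each other in high P and in low P. In low+P no such direct test was made, and only the non-overlap of libraries and the change from low P were examined. In high P, every phf1 library lay above every Col-0 library for 2 of the 47 genes, PSAE2 and PSAN, where this held for 4.27% of all genes. LHCB1.4, which was called higher in phf1 in medium P, was the 1 gene for which every phf1 library lay below every Col-0 library in high P, and 6.23% of all genes did so. It had 4.12, 2.47 and 1.54 CPM in phf1 high P, against 5.91, 5.01 and 6.48 CPM in Col-0 high P, and was not called there (edgeR adjusted p = 0.999). The median log2 fold change was 2.02 over the 45 tested but 0.16 without phf1 high P A. edgeR called none of them, where 0.0105% of all genes were called, and had 26 of 45 at an unadjusted p below 0.05 (4.72% of all genes). DESeq2 called none of the 47 (0.0382% of all genes). PSAE2 (AT2G20260), a stromal subunit of photosystem I, had the smallest p, with 18.9, 2.47 and 1.54 CPM in phf1 high P, against 0.422, 0.683 and 0 CPM in Col-0 high P. Its log2 fold change was 4.28 ± 1.01 (SE, edgeR adjusted p = 0.980) and 2.27 without phf1 high P A. PSAE2 did not pass the filter on low counts in the Col-0 libraries alone, so it was tested through the phf1 libraries in which it was high. Its Col-0 high P values came from 1, 3 and 0 reads, so the size of the fold change depends on the prior count.

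In low P, no gene of the 47 had every phf1 library above every Col-0 library, where this held for 3.56% of all genes. LHCB4.3, an antenna gene too low to be tested, was the 1 gene with every phf1 library below every Col-0 library (3.88% of all genes), at 0.638, 0.361 and 0.545 CPM in phf1, against 0.994, 0.920 and 0.647 CPM in Col-0. The median log2 fold change of phf1 over Col-0 was 0.55 over 43 genes tested with the 13 low P and low+P libraries, and -0.25 without phf1 low P B. edgeR called none (0.00531% of all genes) and had 1 at an unadjusted p below 0.05 (4.65% of all genes), GAPB. DESeq2 called none (0.128% of all genes). GAPB (AT1G42970), the subunit that gives the chloroplast dehydrogenase its regulation by light, had 0.638, 2.52 and 0.545 CPM in phf1 at low P, against values of 12.9, 5.21 and 0.324 CPM in Col-0 at low P. Col-0 A and B were high and Col-0 C was not (log2 fold change -2.36 ± 1.04, SE, edgeR adjusted p = 0.938). GAPA (AT3G26650), its partner subunit, had 0.957, 4.69 and 0.727 CPM in phf1 at low P, against 12.2, 7.36 and 1.62 CPM in the same Col-0 libraries.

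In low+P, both phf1 libraries lay above both Col-0 libraries for 35 of the 47 genes, but with 2 libraries against 2 this held for 19.6% of all genes. The clock genes differed between the same libraries without overlap. Morning genes (CCA1, LHY and PRR9) summed to 35.6 and 82.2 CPM in both phf1 libraries, against sums of 379.1 and 263.7 CPM for Col-0, and 5 evening genes to 605.6 and 690.6 CPM in phf1, against 224.5 and 306.2 CPM in Col-0. The 16 leaf markers described with the leaf cells summed to 38.9 and 20.9 CPM in phf1, against 73.3 and 209.6 CPM in Col-0, also without overlap. The part of the clock and of leaf cells in this comparison was not tested. LHCB1.2 had 13.6 and 12.3 CPM in phf1 at low+P and values of 1.49 and 1.08 CPM in Col-0 at low+P, while it had 4.46, 13.3 and 3.45 CPM in phf1 at low P and values of 6.96, 4.29 and 1.94 CPM in Col-0 at low P. It had the smallest p for the genotype difference in low+P minus that in low P (log2 difference 2.65 ± 0.901, SE, edgeR adjusted p = 1). The median of this difference was 0.91 over 43 genes. For this difference from low P, edgeR called none (0% of all genes), with 4 at an unadjusted p below 0.05 (3.9% of all genes), and DESeq2 called none (0.0616% of all genes). The genotypes were not tested against each other within low+P alone.

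Averaged over the 4 regimes with equal weight, all 45 genes tested had a higher fitted level in phf1 than in Col-0, and the median log2 fold change was 1.81, which was 1.32 without phf1 high P A. edgeR called none of them, where 0.0263% of all genes were called, and 44 of 45 had an unadjusted p below 0.05 (12% of all genes). DESeq2 called 33 of the 47, against 2.27% of all genes. Both of these counts include genes, such as LHCB2.3, among the 9 that did not pass the filter on low counts in the Col-0 libraries alone. For the fits that left 1 library out, the share of all genes called was not worked out. Leaving out 1 library at a time, edgeR made 22 calls without Col-0 medium P C, 7 without phf1 high P B, 2 without phf1 medium P B, 2 without phf1 high P C, 1 without Col-0 low P A and 0 without any other. LHCB2.3 had the smallest p (log2 fold change 2.18 ± 0.423, SE, edgeR adjusted p = 0.135). It had 1.28, 3.25 and 2.73 CPM in phf1 at low P, 3.14 and 1.04 CPM in phf1 at low+P and 0.562, 1.06 and 1.03 CPM in phf1 high P. In Col-0 it had 1.49, 0.306 and 0.324 CPM (low P), 0.270 and 1.08 CPM at low+P and 0.844, 0.228 and 1.08 CPM at high P. Outside medium P the genotypes overlapped for this gene in each regime.

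The difference between the genotypes in medium P minus that in low P had a median of 2.61 over the 45 genes tested, where all genes had -0.02. edgeR called none (0.0105% of all genes), with 21 of 45 at an unadjusted p below 0.05 (6.23% of all genes). DESeq2 called 3 of the 47, LHCB1.4, GAPA and GAPB (0.187% of all genes). LHCB1.4 had the smallest p (log2 difference 4.03 ± 0.948, SE, edgeR adjusted p = 0.698). With low P it had 4.78, 11.2 and 2.18 CPM in phf1, against 3.98, 5.82 and 5.50 CPM in Col-0, so that phf1 medium P lay above, and Col-0 medium P below, the low P libraries of Col-0, except that phf1 medium P B (5.24 CPM) lay within their range.

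Within phf1, medium P was set against low P to follow the soil rather than the genotype. Every medium P library lay above every low P library for 34 of the 47 genes, against 4.16% of all 18606 genes tested in the 11 phf1 libraries. All 45 genes tested had a higher fitted level in medium P, and the median log2 fold change was 2.34, where all genes had -0.02. edgeR called none (0% of all genes), with 34 of 45 at an unadjusted p below 0.05 (3.17% of all genes), and DESeq2 called none of the 44 for which it gave an adjusted p (0.00436% of all genes). PSAN had the smallest p, with the medium P values given above and 4.78, 9.37 and 7.81 CPM in phf1 at low P (log2 fold change 1.55 ± 0.429, SE, edgeR adjusted p = 0.978). The sum for phf1 low P B (690.0 CPM) was the highest of the low P libraries of phf1, and without it the median over the genes was 3.34. The leaf markers, given with their values in the paragraph on leaf cells, overlapped between these groups, with phf1 medium P B far above the other libraries. Their part in this comparison was not tested.

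In high P against low P within phf1, the median log2 fold change was 1.32 over 45 genes but -0.35 without phf1 high P A. GAPA had the smallest p, with 66.0, 6.70 and 2.31 CPM at high P, against the low P values given above (log2 fold change 3.65 ± 1.18, SE, edgeR adjusted p = 0.999, and 1.08 without phf1 high P A). edgeR called none (0% of all genes), with 8 of 45 at an unadjusted p below 0.05 (2.89% of all genes), and DESeq2 called none (0.0262% of all genes). In low+P against low P, the median was 0.66 over 43 genes. PSAE1 (AT4G28750), a stromal subunit of photosystem I, had 6.45 and 4.59 CPM in phf1 at low+P and 1.59, 3.25 and 1.09 CPM in phf1 at low P (log2 fold change 1.53 ± 0.714, SE, edgeR adjusted p = 1). Neither edgeR nor DESeq2 called any gene of the 47 or of all genes there (0%), and edgeR had none of the 47 at an unadjusted p below 0.05 (0.898% of all genes). Over the 4 regimes together, edgeR's F test called none (0% of all genes), with LHCB2.3 at the smallest p (edgeR adjusted p = 0.999) and 12 of 45 at an unadjusted p below 0.05 (1.57% of all genes), and DESeq2 called none (0.00872% of all genes).

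Within Col-0, the median log2 fold change against low P was -0.15 in medium P and -0.14 in high P over the 36 genes tested in the 11 Col-0 libraries, and -0.31 in low+P over 43 genes. Without Col-0 low P A these medians were 0.27, 0.14 and -0.02. The 11 genes that were too low for the Col-0 fit were LHCB2.3, LHCB4.3, RBCS1B, RBCS2B, PSAE2, PSAH1, PSAH2, PSAK, PSAO, PSBQ1 and PSBS. LHCB1.4 had the smallest p in medium P (0.531, 1.22 and 2.16 CPM, against 3.98, 5.82 and 5.50 CPM in the low P libraries, log2 fold change -1.96 ± 0.496, SE). Its groups did not overlap, it was not called by edgeR (adjusted p = 0.484), and it was the only gene of the 47 that DESeq2 called in this comparison (1.62% of all genes). edgeR called none of the 36 (0.00541% of all genes), with 5 at an unadjusted p below 0.05 (7.91% of all genes).

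GAPB had the smallest p in both other Col-0 comparisons. It had 0.844, 0.228 and 0 CPM at high P and 0.135 and 0.540 CPM at low+P, against 12.9, 5.21 and 0.324 CPM at low P, with log2 fold changes of -4.19 ± 1.46 and -4.13 ± 1.33 (SE, edgeR adjusted p = 0.776 and 0.477). The low P libraries A and B were high, and C was within the range of the others. In the Col-0 fit GAPB passed the filter on low counts through low P A and B, the libraries in which it was high. Its values came from 2, 1 and 0 reads at high P and from 1 and 3 reads at low+P. The sizes of both fold changes therefore depend on the prior count. In high P edgeR called none of the 36 (0.00541% of all genes), with 2 at an unadjusted p below 0.05 (6.08% of all genes), and DESeq2 called none (0.615% of all genes). In low+P edgeR called none of 43 (0.00531% of all genes), with 4 at an unadjusted p below 0.05 (7.27% of all genes), and DESeq2 called none (1.25% of all genes). Over the 4 regimes, edgeR's F test called none (0.00541% of all genes), with LHCB1.4 at the smallest p (edgeR adjusted p = 0.781) and 3 of 36 at an unadjusted p below 0.05 (6.08% of all genes), and DESeq2 called 1 of the 47, LHCB1.4 (1.52% of all genes).

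In phr1 phl1, 1 of the 2 low P libraries had a high sum. LHCB1.3 had 20.8 and 122.9 CPM in phr1 phl1 at low P and values of 26.1, 17.8 and 15.5 CPM in Col-0 at low P, so that 1 library of the mutant lay within the range of Col-0 and the other far above. The median log2 fold change of phr1 phl1 over Col-0 in low P was 0.63 over 43 genes and -0.06 without phr1 phl1 low P B. GAPB again had the smallest p, with 0.292 and 0.379 CPM in phr1 phl1 and the Col-0 values given above, high in A and B only (log2 fold change -4.06 ± 1.43, SE, edgeR adjusted p = 0.639). The phr1 phl1 values came from 1 read each, so the size of this fold change depends on the prior count. edgeR called none (0% of all genes), with 4 at an unadjusted p below 0.05 (7.54% of all genes), and DESeq2 called none (0.801% of all genes).

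The library labelled phr1 phl1 low+P, whose PHR1 level goes against its label, had the fifth highest sum of the 25 libraries. LHCB2.3 had 8.40 CPM there and 0.877 and 0.379 CPM in phr1 phl1 at low P (log2 fold change 3.58 ± 1.15, SE, edgeR adjusted p = 1). The low P values of LHCB2.3 came from 3 and 1 reads, so the size of this fold change depends on the prior count. With 1 library in low+P, the error and the p-values of this comparison take the spread from the other groups and assume that this library would vary like them. The median over 43 genes was 1.04. edgeR and DESeq2 called none of the 47 and no other gene (0% of all genes), and edgeR had 3 of 43 at an unadjusted p below 0.05 (2.43% of all genes). Over the 6 groups of low P and low+P, edgeR's F test called none (0% of all genes), with LHCB1.2 at the smallest p (edgeR adjusted p = 1) and 5 of 43 at an unadjusted p below 0.05 (3.6% of all genes). DESeq2's likelihood ratio test called 2 of the 47 there, LHCB1.2 and LHCB2.2 (0.881% of all genes).

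**Figure D4:**
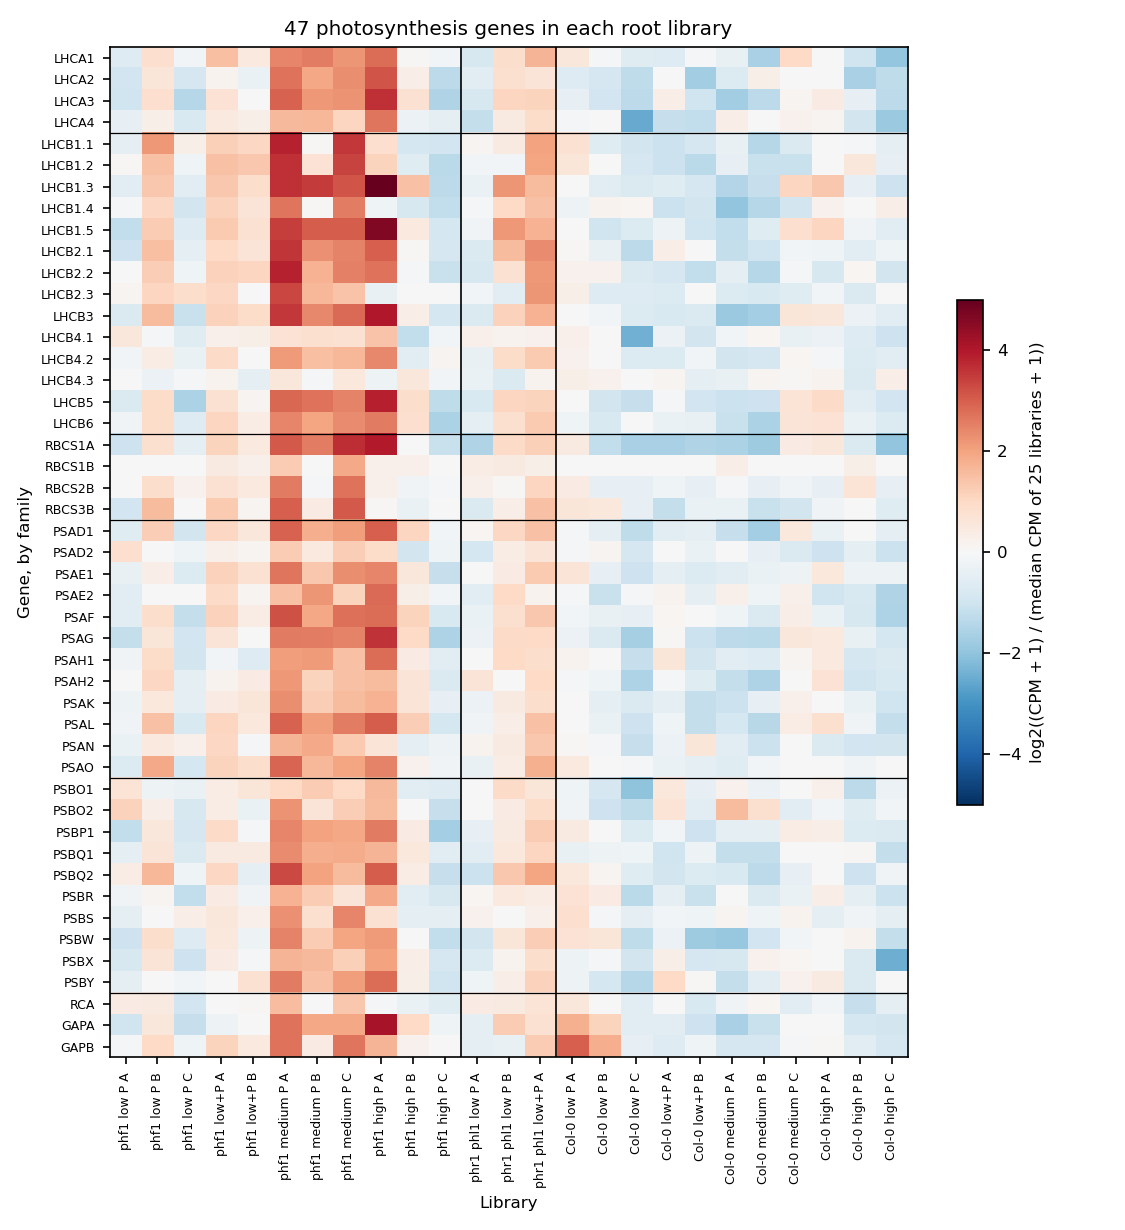
Each of the 47 genes (rows, by family) in each of the 25 libraries (columns), as log2 of CPM + 1 over the median CPM of the 25 libraries + 1. Red is above and blue below the median of the gene. The phf1 medium P libraries and phf1 high P A are red for nearly all genes, LHCB1.1, LHCB1.2 and LHCB1.4 are red in phf1 medium P A and C but pale in B, and GAPB is red in Col-0 low P A and B.

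The spread over the 25 libraries differed between the genes. LHCB4.1 ran between 11.3 and 171.5 CPM with a median of 63.8 CPM, PSBO1 between 10.4 and 138.0 CPM with a median of 44.7 CPM, and RCA between 17.3 and 119.1 CPM with a median of 40.1 CPM. Their highest levels were 2.69, 3.08 and 2.97 times the median. For LHCB1.3 the highest level was 54.3 times the median, for LHCB1.5 26.8 times and for GAPA 22.9 times.

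Genes that work beside the 47 were given by lists of Calvin cycle, electron transport, chlorophyll synthesis and photorespiration genes. In phf1 over Col-0 in medium P, none of the 46 genes tested on these lists was called by edgeR, and the median log2 fold changes were 0.41 for 13 other Calvin cycle genes, 0.98 for 12 electron transport genes, 0.86 for 12 of 14 chlorophyll synthesis genes and 1.56 for 9 of 10 photorespiration genes. At an unadjusted p below 0.05 there were 5, 5, 4 and 6 of them, all higher in phf1, against 9.61% of all genes in either direction. The 5 Calvin cycle genes were PRK, SBPASE, CFBP1, FBA2 and GAPA2. The phosphoribulokinase gene PRK had 12.8, 5.51 and 11.2 CPM in phf1 medium P, against 0.265, 0.204 and 1.80 CPM in Col-0 medium P (log2 fold change 3.59 ± 1.1, SE, edgeR adjusted p = 0.281). SBPASE, for sedoheptulose bisphosphatase, had 4.96, 1.65 and 6.04 CPM in phf1, against 0, 0.204 and 0 CPM in Col-0, which is 1 read in 3 libraries and too few for a fold change. The other 8 had log2 fold changes between -0.48 (RPE) and 1.26 (FBA1), among them the transketolase TKL1 (-0.03 ± 0.433, SE) and CP12-1 (0.30 ± 0.867, SE), which binds GAPDH and phosphoribulokinase.

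The 5 electron transport genes were PETE1, PETE2, PETC, LFNR2 and ATPC1. The plastocyanin gene PETE2 had a log2 fold change of 3.93 ± 1.18, the leaf ferredoxin reductase LFNR2 3.55 ± 0.863 and the ATP synthase subunit ATPC1 3.71 ± 0.895 (SE, edgeR adjusted p = 0.281, 0.265 and 0.265), all against a few reads in Col-0. The other 7 lay between -0.66 (PGRL1B) and 1.29 (LFNR1). The leaf ferredoxin FD2 was one of them, with 30.8, 31.2 and 37.8 CPM in phf1 and 54.9, 42.9 and 18.6 CPM in Col-0. The root plastid genes FD3 and RFNR1 had -0.21 ± 0.417 and -0.30 ± 0.256 (SE). RFNR2, the other gene of that list, had 93.2, 58.3 and 74.55 CPM in phf1 medium P and 29.99, 74.5 and 97.7 CPM in Col-0 medium P, and the genotypes overlapped. In chlorophyll synthesis, the magnesium chelatase subunit CHLH had 3.15 ± 0.885 and the cyclase subunit CRD1 2.77 ± 0.871 (SE, edgeR adjusted p = 0.265 and 0.303), whereas the magnesium chelatase subunit CHLD had 0.28 ± 0.288 (SE). Of the regulators, GLK1 had 8.51, 0.276 and 1.21 CPM in phf1 medium P and 0, 0.204 and 0.541 CPM in Col-0 medium P. It was high in phf1 A alone, and it had 0.375 CPM in phf1 high P A, where the sum of the 47 genes was highest. GLK2 had 7.09, 11.4 and 12.6 CPM in phf1 and 22.8, 7.55 and 8.47 CPM in Col-0, and HY5 had 4.61, 8.96 and 3.45 CPM in phf1 and 2.65, 6.53 and 7.93 CPM in Col-0, so that both genes overlapped.

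**Figure D5:**
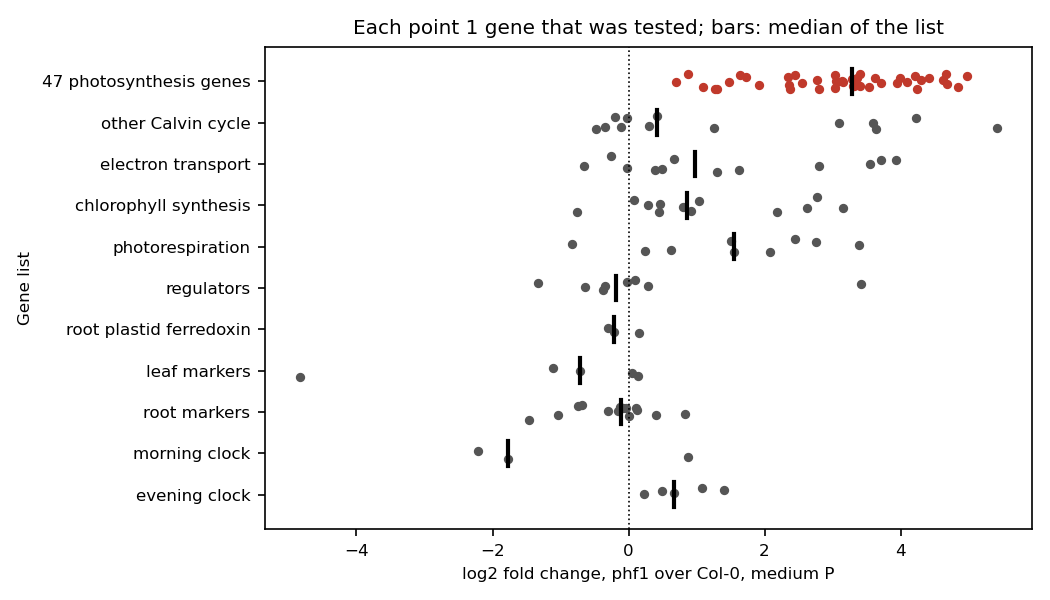
Log2 fold change of phf1 over Col-0 in medium P for the genes tested in each list, with the median as a bar and a dotted line at 0. The 47 genes (45 tested) lie between 0.70 and 4.98 with a median of 3.28, whereas the medians of the other lists lie between -1.78 and 1.56.

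Markers of leaf cells were examined because shoot tissue in a root sample would carry these messages. The 16 leaf markers include 6 of stomata and their lineage (FAMA, TMM, SPCH, MUTE, MYB60 and EPFL9), a subset that no rule set apart. These 6 summed to 0 to 1.84 CPM over the 25 libraries. They summed to 1.77, 1.65 and 0.518 CPM in phf1 medium P and 1.31, 1.76 and 0.514 CPM in phf1 high P, against 0.531, 1.84 and 0.901 CPM in Col-0 medium P and 0.422, 0.683 and 0 CPM in Col-0 high P. Of these 6, EPFL9 had reads in all 4 libraries with high sums (0.354, 0.827 and 0.345 CPM in phf1 medium P and 0.562 CPM in phf1 high P A) and FAMA in 3 of them, while MUTE and SPCH were at 0 in all 4, as in the other medium P and high P libraries. KAT1, a leaf marker outside these 6, had 0.354, 0.138 and 0 CPM in phf1 medium P and 0.187, 0 and 0 CPM in phf1 high P. In Col-0 it had 2.12, 0.204 and 0 CPM at medium P and 2.96, 0 and 0 CPM at high P. The whole list of 16 leaf markers had 4 to 12 members at 0 in a library, and it summed to 78.0, 501.3 and 54.4 CPM in phf1 medium P and 304.8, 89.4 and 20.3 CPM in phf1 high P. In Col-0 it summed to 679.9, 192.9 and 212.1 CPM at medium P and 143.9, 23.7 and 41.8 CPM at high P. In low P it summed to 4.46, 18.4 and 57.6 CPM for phf1 and 24.1, 26.4 and 33.3 CPM for Col-0, so that each Col-0 medium P library lay above each Col-0 low P library, whereas phf1 medium P C lay below phf1 low P C. TGG1 and TGG2, the myrosinases of guard cells and myrosin cells, made up most of it in all medium P libraries but phf1 C and summed to 45.7, 479.9 and 24.2 CPM in phf1 medium P and 672.4, 118.0 and 189.1 CPM in Col-0 medium P. The part of leaf cells in the levels of the 47 genes was not tested.

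Clock genes differed between libraries, and the 47 genes are known to be under the clock. The morning genes CCA1, LHY and PRR9 summed to 23.4, 71.3 and 137.0 CPM in phf1 medium P and 12.4, 56.8 and 89.2 CPM in phf1 high P, against 254.0, 311.4 and 77.7 CPM in Col-0 medium P and 19.0, 23.4 and 465.4 CPM in Col-0 high P. In phf1 high P A the sum of the morning genes was the lowest of the 25 libraries. The 5 evening genes summed to 720.1, 517.0 and 399.7 CPM in phf1 medium P and 360.6, 259.8 and 529.5 CPM in Col-0 medium P. The part of the hour of harvest in the levels of the 47 genes was not tested. Root markers summed to 2082, 1139 and 1706 CPM in phf1 medium P and 1274, 4252 and 1686 CPM in Col-0 medium P, and these overlapped. PYK10 made up most of each sum, with 1511, 962.2 and 1560 CPM in phf1 and 1164, 3929 and 1284 CPM in Col-0, so the sums mainly follow 1 gene.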

How the data were processed

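Root RNA-Seq counts of 25 libraries in 10 groups were used. The authors removed reads that held adaptor sequence with Trimmomatic 0.36, mapped the single-end reads of 50 bases to TAIR10 with HISAT2 2.1.0 and counted them with featureCounts, with a version and settings not given in the sources used here. The deposited table holds raw whole-number read counts, which the authors did not normalize. Groups were taken from the names given with the counts. No per-sample column was left out.

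CPM are relative to total counts. Tests used R 4.3.3 and edgeR 4.0.16 (filterByExpr, TMM, quasi-likelihood F test, prior count 0.125, Benjamini-Hochberg over all genes tested, adjusted p below 0.1) in 4 fits: the 13 low P and low+P libraries, the 11 Col-0, the 11 phf1, and the 22 Col-0 and phf1 libraries (biological coefficients of variation 0.426, 0.462, 0.386 and 0.428). Standard errors are the fold change over the root of its F statistic. DESeq2 1.42.0 was an alternative, as were a single fit of all 25 libraries, scaling by RLE, a threshold of 0.05, testing without a filter or with a minimum mean of 1 CPM, and leaving out each library. The scripts were tested on simulated counts. The columns do not tie a library to a plot, so p-values measure only the spread between these libraries, which may in part be technical. The closest libraries of a group, Col-0 low P A and B, had a median chi-square of 1.24 per gene where sampling gives 0.455, so none were merged. Gene models, overlaps and windows came from RefSeq's TAIR10.1, which holds 26714 of the 27206 identifiers.

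The members and lists were chosen with earlier results of these data known. By rule, a gene was given in full if it was called, had the smallest p of the 47 in a comparison or the highest mean CPM of its family. LHCB1.1, LHCB1.5, RBCS3B and PSBS were added after their values were seen, as were the comparisons of phf1 with Col-0 within medium P, within high P and in medium minus low P.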

Additional observations from a re-analysis of the deposited data

Results flagged for a closer look

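With low+P set against low P, 6 of the 47 genes lay higher in phr1 phl1 and lower in Col-0 in every library, and so did 3.64% of all 18830 genes tested. The difference between the log2 ratios of mean CPM + 1 was 3.33 for LHCB1.2, 1.91 for LHCB1.4, 2.96 for LHCB2.2, 1.71 for LHCB3, 2.32 for PSAO and 2.27 for PSBQ2. In each case the low+P library of phr1 phl1 lay above both phr1 phl1 low P libraries, and both Col-0 low+P libraries lay below the 3 Col-0 low P libraries. LHCB1.2, for example, had 19.4 CPM in that library, against 3.80 and 3.79 CPM in the low P libraries of phr1 phl1. RBCS1B, which was too low to be tested, lay lower in phr1 phl1 and higher in phf1 in every library by CPM, with a difference of -0.484. This pattern was shown by 1.81% of all genes tested. RBCS1B had 1 read in each phr1 phl1 library, so its lower CPM there comes from the library totals alone. In phf1 it had 2 and 1 reads at low+P and 0 reads in each low P library. The morning clock genes summed to 51.7 CPM in phr1 phl1 at low+P, against 271.5 and 421.1 CPM in phr1 phl1 at low P. In Col-0 they summed to 379.1 and 263.7 CPM with low+P and to 161.0, 88.0 and 102.2 CPM with low P. Their part in these differences was not tested. The differences between the genotypes were not tested. They rest on 1 library, in which PHR1 (73.6 CPM) goes against the label.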

How the results depend on the processing

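DESeq2 in place of edgeR called 33 of the 47 genes for the mean of the 4 regimes and 32 for medium P between phf1 and Col-0, where edgeR called 0 and 2. It called 3 in the genotype difference of medium minus low P, 2 over the 6 groups, 1 over the Col-0 regimes and 1 in Col-0 medium against low P, where edgeR called 0. All 25 libraries in 1 fit gave 1 call for the mean of the 4 regimes (the share of all genes was not worked out), and a threshold of 0.05 gave 0 in medium P between the genotypes. With the 36 genes without shared stretches, the ratio of summed levels in medium P was 4.20 in place of 5.36.

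The share of all genes called was not worked out for the fits that each left 1 library out. Leaving out 1 library at a time gave 0 to 22 calls for the mean of the 4 regimes, 0 to 24 for medium P between the genotypes and 0 to 4 for the genotype difference of medium minus low P. The median log2 fold change over the genes then ran between 2.94 and 4.02 for medium P between the genotypes, 0.16 and 2.49 for high P, and -0.25 and 0.88 for low P. It ran between 2.11 and 3.70 for the genotype difference of medium minus low P and 0.47 and 1.74 for that of low+P minus low P. Within phf1 it ran between 2.05 and 3.34 for medium, -0.35 and 1.98 for high, and 0.25 and 1.54 for low+P against low P. For phr1 phl1 in low+P against low P it ran between 0.60 and 1.80, and for Col-0 in medium, high and low+P against low P between -0.88 and 0.27, -0.58 and 0.14, and -0.66 and -0.02.

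No paired analysis was possible because the columns of the counts carry no replicate number. At 2.37 to 7.41 reads per CPM, values under 1 CPM rest on a few reads, and small differences between them were not detectable at this depth.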
